A study of Rattus norvegicus with 18 samples.

Results

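Removal of the sympathetic supply and removal of the vagal supply were compared head to head in rat liver 2 h after partial hepatectomy, which removes part of the liver and sets off regrowth of the rest. The comparison set the 3 arrays of sympathectomy with partial hepatectomy (SPH) against the 3 arrays of vagotomy with partial hepatectomy (VPH), chosen by their titles, which makes 6 of the 18 arrays of the series. It covered all 31042 probe sets that are not array controls. Every rat was a Sprague-Dawley of 12 weeks, and the tissue was the mid portion of the right lobe, taken after blood had been flushed out through the portal vein. Total RNA was labelled with biotin and hybridised to Affymetrix Rat Genome 230 2.0 arrays, which report a fluorescence signal for each probe set, a group of short probes for 1 transcript. The other groups, used only for levels beside this comparison, were total liver denervation with partial hepatectomy (TDPH, 2 h), partial hepatectomy alone (PH, 2 h), sham operation (2 h) and normal liver (0 h), with 3 arrays each. SPH and VPH livers both carried the hepatectomy, and no group had a nerve supply cut without it, so an effect of the nerve operation itself cannot be told apart from a changed response to hepatectomy. How and when the nerves were cut is not stated in the sources used here. Arrays of a group are technical replicates by their titles. Every n therefore counts arrays, and p-values measure the spread between arrays, pooled over all 6 groups. How many animals a group stands for is not stated in the sources used here.

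Sympathetic fibres in the liver release noradrenaline, which acts on adrenergic receptors and, in hepatocytes, mobilises glucose. Vagal fibres release acetylcholine, which acts on muscarinic and nicotinic receptors and takes part in postprandial glucose storage and in the restraint of inflammatory cytokines by macrophages. In the first hours after hepatectomy the remaining hepatocytes leave quiescence in a priming phase, during which immediate early transcription factors such as the AP-1, Egr and NR4A families are switched on and cytokine and metabolic programmes change.

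The 2 groups differed in how closely their arrays agreed. Over 4150 brightly measured probe sets, the SD of the log2 difference between a pair of SPH arrays was 0.27, 0.305 and 0.245, against 0.122, 0.123 and 0.0645 for VPH, while pairs within the other groups lay between 0.112 and 0.145. VPH replicates 2 and 3 were the closest pair of the series (r = 0.977 over all probe sets, against 0.947 to 0.963 for all other pairs within a group). They are not identical, and what makes them so alike is not stated in the sources used here; results are also given with those 2 arrays averaged into 1. A second table that the authors deposited holds 3 VPH columns, of which 1 matched no array of the value table, 1 equalled VPH replicate 1 for all 31042 probe sets and 1 equalled VPH replicate 2 for 31041 of them, within 0.06 signal units; VPH replicate 3 was not among them. The trimmed mean signal, with 2% of probe sets taken off at either end, was 500.3 on all 6 arrays. The ratio of 3′ to 5′ signal, a measure of RNA integrity, was 1.285 to 1.291 for Gapdh in SPH and 1.166 to 1.186 in VPH, and 1.696 to 1.866 against 1.805 to 1.859 for Actb. Precision is limited by having 3 arrays a group. The statistical fit pools the spread of all 6 groups for each probe set, so an SE can understate the spread of the SPH arrays.

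**Figure D1:**
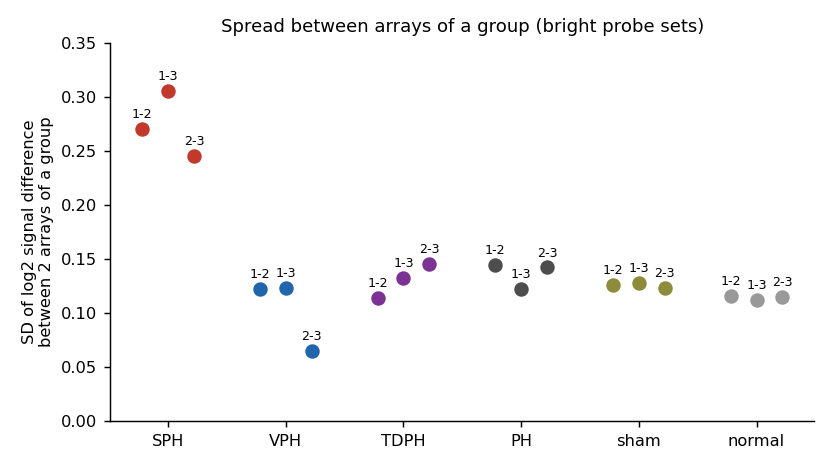
Spread between arrays of the same group. Each point is the SD of the log2 signal difference between 2 arrays of a group over 4150 bright probe sets, and the small numbers give the replicates paired. The 3 SPH pairs lie at 0.245 to 0.305, above every other pair, and VPH replicates 2 and 3 are lowest at 0.0645.

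In SPH livers, compared with VPH livers, the nuclear receptor gene Nr4a1 and 3 other immediate early genes, 4 genes tied to the circadian clock, 3 neutrophil markers and the neutrophil chemokine Cxcl2 were higher. Lower in SPH were 5 MHC class II genes, 5 interferon response genes, 8 markers of T cells and natural killer cells and 2 subunits that target phosphatase to glycogen. A difference was called when limma's adjusted p was under 0.05 and the difference was at least 2-fold on the log2(signal + 12) scale, on which all differences below are SPH minus VPH unless stated otherwise. Of 22125 probe sets that passed a filter on low signal, 327 were higher (1.48%) and 287 were lower (1.3%) in SPH. Of 11491 genes, each represented by its brightest probe set, 120 were higher (1.04%) and 149 were lower (1.3%). These shares are the background for every count of called list members below. The median difference was -0.025 over all probe sets and -0.054 over all genes. The arrays of the 2 groups did not overlap for 4203 genes (36.6%), so a gap between the groups was common at sizes well under 2-fold. With VPH replicates 2 and 3 averaged, 96 genes were higher (0.835%) and 92 lower (0.801%), among them 90 of the 120 and 90 of the 149. With SPH and VPH arrays alone fitted, so that the other groups lent no spread, 82 of the 120 and 92 of the 149 kept their call. In every alternative setting that tested their probe set, leaving out each array in turn included, 31 and 33 genes kept their call. The mean over a gene's probe sets was not part of that count and kept 102 of the 120 and 134 of the 149. No called gene turned its direction in any setting that tested it.

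**Figure D2:**
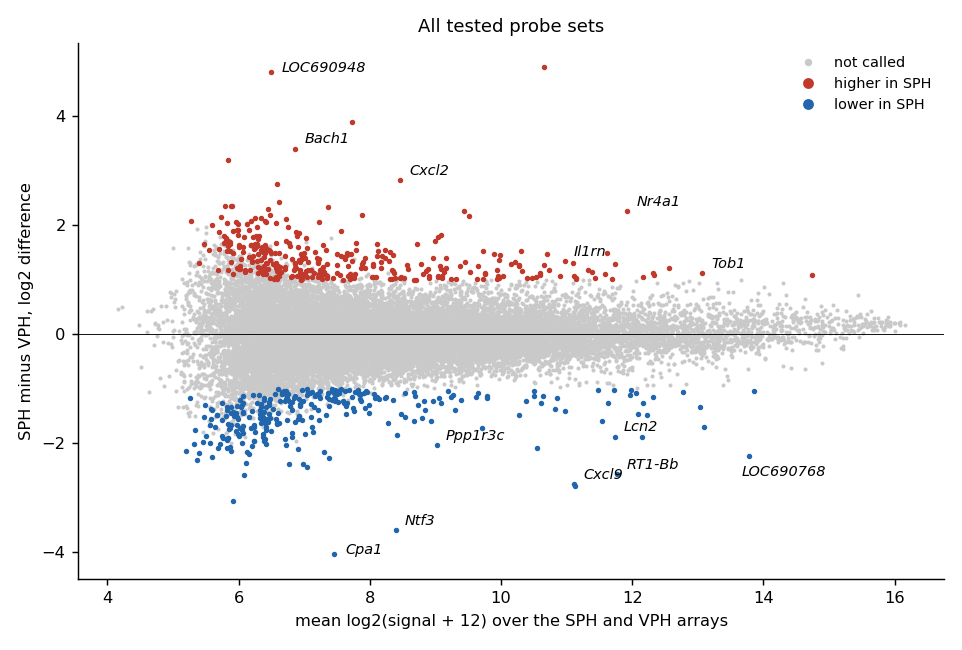
SPH minus VPH for all 22125 tested probe sets. The x axis is the mean log2(signal + 12) over the 6 arrays and the y axis the log2 difference; 327 probe sets called higher in SPH are red, 287 called lower are blue, and some genes described in the text are labelled. Most called points lie at a mean of 6 to 10, which runs from dim signals to well above the median signal of an array.

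Immediate early genes are those that cells switch on without new protein synthesis. Of 36 tested, 4 were higher and none was lower in SPH, set against the background of 1.04% and 1.3%; 29 had a difference above 0, with a median of 0.37 against -0.054 over all genes. Nr4a1, a nuclear receptor without known ligand that cAMP and calcium signals switch on, had signals of 9385, 7291 and 8951 in SPH and 1744, 1800 and 1757 in VPH. The groups were far apart, at a log2 difference of 2.26 (SE 0.21, 4.78-fold, adjusted p = 2.17e-07). PH livers lay between them (2642, 2892 and 2676), TDPH livers averaged 3223, and sham-operated livers averaged 106. Maff, a small bZIP factor that pairs with other bZIP proteins, measured 770, 954 and 1019 in SPH against 254, 282 and 278 in VPH (1.70, SE 0.29, adjusted p = 0.000244). It was called below PH in VPH (VPH minus PH -1.20), while SPH minus PH was 0.50 and not called. Fosl2, which encodes the AP-1 subunit Fra-2, measured 320, 345 and 298 in SPH against 105, 87.5 and 140 in VPH (1.46); here SPH was near PH (510, 336 and 351) and VPH stood below it, and the call was lost without VPH replicate 2 (1.32). Csrnp1, a nuclear protein gene of the same class, was at 1.02, close to the 2-fold limit, and was not called with VPH replicates 2 and 3 averaged (0.98).

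The classical early genes of the priming phase differed less than 2-fold. Egr1, a zinc finger factor, had 21029, 19230 and 19730 in SPH and 12516, 11558 and 11618 in VPH (0.75, adjusted p = 4.89e-10), without overlap and below the fold limit. Fos was at 0.56, Myc at 0.49, Atf3 at 0.85 and Jun at 0.12 (adjusted p = 0.141). Btg2, Gadd45b and Junb, named after their values were seen, were at 0.71, 0.94 and 0.59. Ier3, also named afterwards, had a difference below 0 (-0.59), so the early genes did not all lie on the same side.

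The promoters of Nr4a1 and Maff are printed because these are the largest differences among the early genes. Each is 300 bases of RefSeq sequence in build GRCr8, from 250 bases before to 50 after the annotated start, 5′ to 3′ on the gene's strand. Capitals mark the short core of the cAMP response element, TGACG, searched on both strands, so that CGTCA is a match on the other strand.
Nr4a1 (chr7:134259888-134260187, plus strand): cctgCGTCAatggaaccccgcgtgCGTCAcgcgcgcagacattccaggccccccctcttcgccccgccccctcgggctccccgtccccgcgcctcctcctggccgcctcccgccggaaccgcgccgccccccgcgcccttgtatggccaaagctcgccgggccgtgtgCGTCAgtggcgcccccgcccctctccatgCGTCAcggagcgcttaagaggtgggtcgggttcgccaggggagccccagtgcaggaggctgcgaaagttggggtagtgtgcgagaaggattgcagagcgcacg
Maff (chr7:112792537-112792836, plus strand): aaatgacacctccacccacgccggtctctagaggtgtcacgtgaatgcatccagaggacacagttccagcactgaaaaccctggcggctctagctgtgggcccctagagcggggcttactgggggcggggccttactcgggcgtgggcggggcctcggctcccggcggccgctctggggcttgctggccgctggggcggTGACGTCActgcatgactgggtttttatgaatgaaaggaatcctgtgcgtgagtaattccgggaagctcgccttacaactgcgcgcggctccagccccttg
The Nr4a1 window holds 4 of them, which begin at -246, -226, -82 and -53 from the start. The Maff window holds 2 that overlap in the full palindrome TGACGTCA at -51. Of 27457 rat promoters of the same length, 22% hold TGACG and 1.91% hold TGACGTCA; among 8815 promoters of tested genes the shares are 31.7% and 3.1%. Fosl2, the other called early gene with a promoter in the table, has neither in its window. The window of RT1-Ba, a gene that was lower in SPH and is printed below, holds TGACGTCA as well. A match describes the letters of the window and is not evidence of binding.

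Genes that respond to cAMP, the second messenger of glucagon and beta-adrenergic signals, included 2 of 20 that were higher, Nr4a1 and Sik1. None was lower, against 1.04% higher and 1.3% lower over all genes. In this list 16 of 20 were above 0, with a median of 0.32. Sik1, a salt-inducible kinase that restrains CREB coactivators, had 1966, 1519 and 1546 in SPH and 680, 592 and 533 in VPH (1.46, SE 0.14, adjusted p = 4.18e-07). A second probe set of Sik1 was at 0.79 and was not called. The other NR4A receptors are measured dimly. Nr4a2 was at 0.87 and Nr4a3 at 0.42 by their brightest probe sets, neither called, while another probe set of Nr4a3 was called at 1.14 and yet another was at 0.23. Metabolic targets of cAMP differed by less than 2-fold: Pck1, the rate-limiting gluconeogenic enzyme, was at 0.28, G6pc1, which releases free glucose, at 0.33 (another probe set 0.64), and the coactivator Ppargc1a at 0.62 (adjusted p = 0.172). Igfbp1, an insulin-repressed binding protein of insulin-like growth factors, had 55859, 57649 and 57010 in SPH and 35468, 33882 and 34566 in VPH (0.71), a separation far beyond the array spread but under 2-fold.

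Genes tied to the circadian clock, the transcriptional loop that sets daily rhythms, formed a further group. Of 16 tested, 4 were higher and none was lower, against 1.04% of all genes higher. All 4 stayed called with VPH replicates 2 and 3 averaged, against 0.835% of all genes in that setting. Noct, a rhythmic NADPH phosphatase once classed as a deadenylase, had 2670, 1579 and 2330 in SPH and 682, 739 and 783 in VPH (1.53, SE 0.13, adjusted p = 8.82e-08). Bhlhe40, a repressor that is both an early gene and a clock component, had 5964, 5404 and 4657 in SPH and 2168, 2137 and 2234 in VPH (1.28, adjusted p = 3.02e-09). In both genes, on the log2 scale, the lowest SPH array exceeded the highest VPH array by more than the range within either group. A second probe set of Bhlhe40 was at 0.31, and the mean over its probe sets was 0.80, which is not called.

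Nr1d2, a heme-binding repressor of the REV-ERB pair, and Rora, an activator that competes for the same sites, were higher as well. Nr1d2 had 315, 415 and 348 in SPH against 136, 172 and 137 in VPH (1.21), and Rora 3124, 3224 and 3198 against 1486, 1608 and 1644 (1.01). Another, dimmer probe set of Nr1d2 was at 0.82 and was not called. Rora stood just above the fold limit and fell just under it in 6 settings, for example at 0.96 without VPH replicate 1. The other 12 genes of the list were not called and lay between -0.58, for the output regulator Tef, and 0.67, for Npas2; genes of these 12 are named after their values were seen. Npas2, a partner of Bmal1 that can stand in for Clock, had 730, 694 and 723 in SPH and 437, 436 and 467 in VPH (adjusted p = 1.7e-05), without overlap but under 2-fold. Clock was at 0.63 with overlapping arrays (adjusted p = 0.316), and Per1 at 0.23 (adjusted p = 0.235), with arrays that do not overlap. Bmal1 was at 0.20, Cry1 at 0.11, Cry2 at 0.17, Per2 at -0.09 and Dbp at -0.38, with adjusted p between 0.189 and 0.826. TDPH livers averaged 2390 for Noct and 4362 for Bhlhe40, in or just under the SPH range. At what time of day the rats were operated on is not stated in the sources used here.

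**Figure D3:**
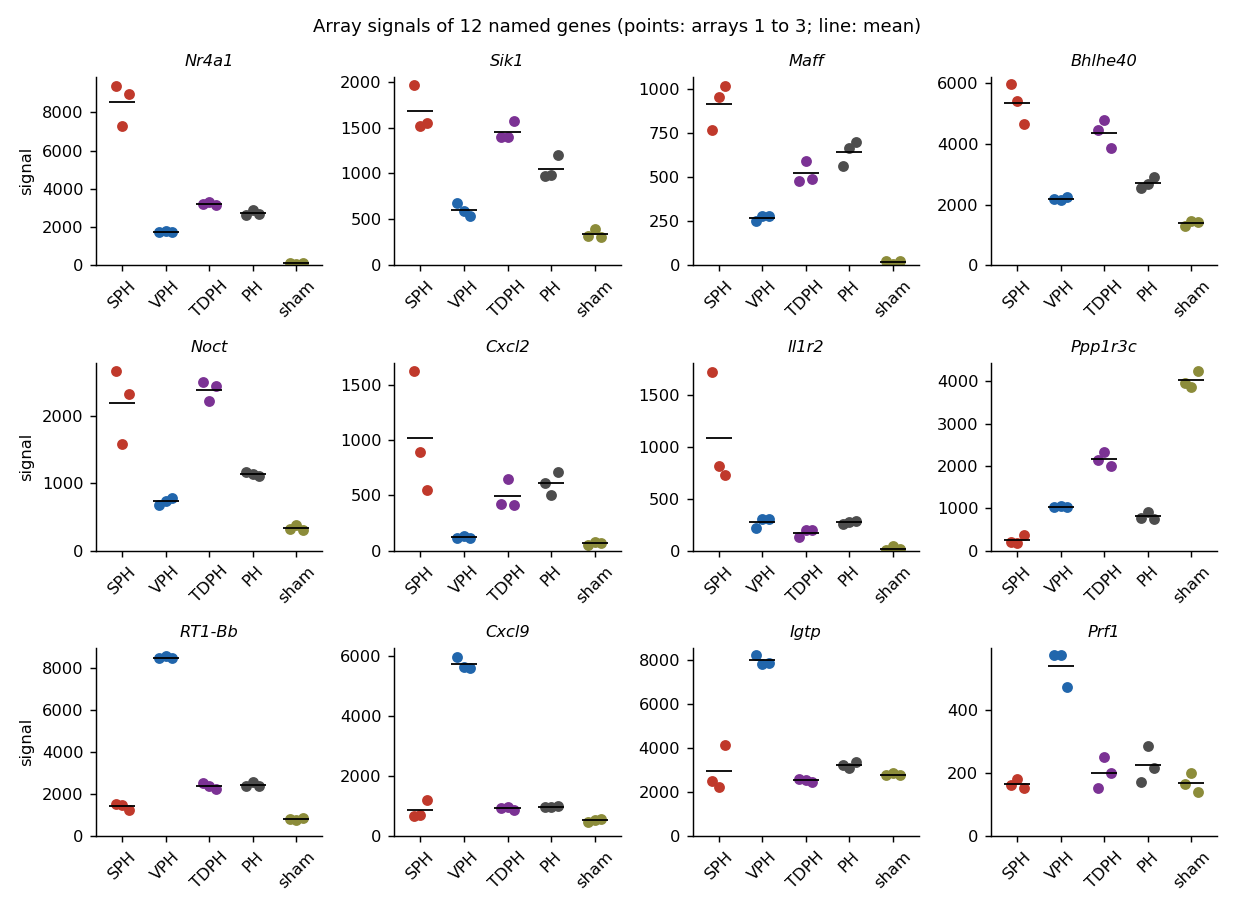
Signals of 12 genes by array. Each panel shows the 3 arrays of SPH, VPH, TDPH, PH and sham-operated liver (x axis) on a linear signal scale (y axis), with a line at the group mean. Nr4a1 lies at 7291 to 9385 in SPH and 1744 to 1800 in VPH, and RT1-Bb at 1259 to 1548 in SPH and 8471 to 8569 in VPH.

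Of 13 tested neutrophil markers, 3 were higher in SPH and none was lower, against 1.04% of all genes higher; 9 of the 13 were above 0, with a median of 0.70, and the SPH arrays were uneven among themselves. Il1r2, the decoy receptor for interleukin 1, had 1720, 812 and 726 in SPH and 223, 306 and 308 in VPH (1.82, SE 0.37, adjusted p = 0.00134). Mmp8, neutrophil collagenase, had 1061, 658 and 494 in SPH and 261, 311 and 334 in VPH (1.19). For 11 of the 13 markers SPH replicate 1 was the highest SPH array. Without it Mmp8 was at 0.9 and was not called. S100a8, an abundant calcium-binding protein of granulocytes, had 12117, 7696 and 5441 in SPH and 4732, 4982 and 4982 in VPH (0.70), under the fold limit. The 4 markers below 0, named after their values were seen and none of them called, were RatNP-3b (-0.60), Np4 (-0.47), Ly6g6c (-0.43) and Defa5 (-0.07). The summed signal of the 13 markers was 46153, 28150 and 22050 in SPH, 16545, 16995 and 17180 in VPH, and 13471 to 13858 in PH. Most of each sum came from S100a8 and S100a9, neither of them called. S100a9, named after its values were seen, had 27480, 16381 and 13424 in SPH and 9105, 9193 and 9161 in VPH (0.99). In such bulk tissue more cells of a type and more RNA per cell cannot be told apart.

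Cxcl2, a chemokine that attracts neutrophils, had one of the larger rises among the genes tested. It measured 1619, 891 and 550 in SPH and 115, 135 and 114 in VPH (2.82, SE 0.27, 7.07-fold, adjusted p = 4.32e-07), and within SPH it was again highest on replicate 1. VPH stood below PH (612, 504 and 711; VPH minus PH -2.21), whereas SPH minus PH was 0.61 and not called. The part that granulocyte content had in this difference was not tested. The NF-kB and chemokine list had a median of 0.05 over 23 tested and 1 fall, Ccl5, described with the lymphocyte genes. Tnf was at -0.34 (adjusted p = 0.704), and Il6 did not pass the filter on low signal. Il1rn, the interleukin 1 receptor antagonist, was higher (3456, 3143 and 2974 in SPH against 1215, 1276 and 1262 in VPH, 1.34, adjusted p = 8.78e-08). Among 34 genes of the IL6-STAT3 and acute phase list it was the only rise, and 2 fell. Lcn2, an iron-scavenging acute phase protein, measured 3275, 1515 and 1091 in SPH and 6574, 6476 and 6480 in VPH (-1.88), and A2m, a protease inhibitor induced through STAT3, 1772, 2862 and 1660 in SPH and 4917, 4886 and 4877 in VPH (-1.26). Socs3, the feedback inhibitor of the pathway, was at 0.57.

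MHC class II genes encode the proteins that present antigen to helper T cells, and those that assemble them. Of 9 tested, 5 were lower in SPH, against a background of 1.3%, none had a difference above 0, and the median was -1.04. All 5 stayed called with VPH replicates 2 and 3 averaged. RT1-Bb, a class II beta chain, had 1548, 1479 and 1259 in SPH and 8511, 8569 and 8471 in VPH (-2.57, SE 0.07, adjusted p = 3.9e-15). The groups were separated by a wide gap and all 6 arrays sat close to their group mean. RT1-Ba, the alpha chain of the same molecule, had 1824, 1841 and 3810 in SPH and 8663, 8853 and 8658 in VPH (-1.89). Its probe sets disagreed: a dimmer one was higher in SPH (2.25, mean signal 2099 in SPH and 307 in VPH), others were at -0.23 and -0.20, and the mean over its probe sets was -0.02. RT1-Db1 (-1.59, another probe set -2.10) and RT1-Da (-1.33) encode chains of the second class II molecule. With VPH replicates 2 and 3 averaged and SPH and VPH arrays alone fitted, RT1-Da was not called (adjusted p = 0.0781). RT1-Bb, RT1-Ba and RT1-Db1 stayed called in that setting. The RT1 genes are a multigene family, so probes may pick up signal of more than 1 member.

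Within SPH the class II genes were not level. Cd74, the invariant chain that guides class II through the cell (named after its values were seen), had 6549, 8276 and 20112 in SPH and 21258, 21068 and 21064 in VPH (-1.04, adjusted p = 0.0029). SPH replicate 3 thus came near the VPH arrays while the other SPH arrays were near PH (7467, 7908 and 7712). Replicate 3 was the highest SPH array for 7 of the 9 genes, and RT1-Bb, for which it was the lowest, was an exception. Summed over the 9 genes the signal was 24592, 26079 and 50670 in SPH, 74124, 72482 and 72445 in VPH, and 28297 to 29021 in PH. Against PH, 5 of the 9 were higher in VPH and none was called in SPH. Both comparisons use the same PH arrays, and over all genes they called 0.862% higher and 0.366% lower in SPH, and 1.24% higher and 0.609% lower in VPH. Normal liver averaged 7066 for RT1-Bb, 6584 for RT1-Ba and 11905 for RT1-Da. Sham-operated liver averaged 824, 700 and 1497 for the same genes. Ciita, the master coactivator of class II transcription, named after its values were seen, was dim, at 39.4, 117 and 102 in SPH and 161, 45.4 and 122 in VPH (adjusted p = 0.748).

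The promoters of RT1-Bb and RT1-Ba are shown because they encode the beta and alpha chains of 1 molecule and, by their brightest probe sets, had the largest class II differences. Windows and build are as above, and capitals mark CCAAT, the core of the Y box of class II promoters, on either strand.
RT1-Bb (chr20:4604069-4604368, minus strand): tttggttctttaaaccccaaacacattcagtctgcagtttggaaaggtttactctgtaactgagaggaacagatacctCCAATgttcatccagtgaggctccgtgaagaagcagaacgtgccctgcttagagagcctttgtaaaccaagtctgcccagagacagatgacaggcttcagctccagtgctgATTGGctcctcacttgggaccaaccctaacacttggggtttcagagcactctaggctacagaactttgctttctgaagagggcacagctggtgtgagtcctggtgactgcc
RT1-Ba (chr20:4576807-4577106, plus strand): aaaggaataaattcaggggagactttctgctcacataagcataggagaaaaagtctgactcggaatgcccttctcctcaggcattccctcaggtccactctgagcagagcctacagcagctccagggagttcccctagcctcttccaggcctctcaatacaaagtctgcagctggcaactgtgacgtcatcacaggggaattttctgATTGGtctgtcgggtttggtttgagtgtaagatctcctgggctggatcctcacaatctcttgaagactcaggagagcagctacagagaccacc
CCAAT begins at -172 and -61 in RT1-Bb and at -43 in RT1-Ba. All 5 called class II genes hold it in their windows, as do 37.7% of the 27457 promoters. The motif was chosen after the values were seen.

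Interferon response genes split into members on either side. Of 37 tested, 1 was higher and 5 were lower, against 1.04% and 1.3% of all genes, with a median of -0.27. Cxcl9, a T cell chemokine induced by interferon gamma, had 691, 719 and 1203 in SPH and 5985, 5631 and 5604 in VPH (-2.75, SE 0.15, adjusted p = 2.47e-10), and a second probe set was at -2.78. Igtp, an immunity-related GTPase, had 2520, 2259 and 4132 in SPH and 8245, 7840 and 7896 in VPH (-1.48), and Gbp2, a guanylate-binding protein, 1515, 833 and 1093 in SPH and 3095, 2710 and 2874 in VPH (-1.37). In these 3 genes SPH was near the PH level and VPH stood above it, with VPH minus PH at 2.52, 1.30 and 1.59. Normal liver averaged 1824, 8167 and 2792 for them in the same order, which is near VPH for Igtp and Gbp2. Psmb9, an immunoproteasome subunit named after its values were seen, was tightly measured, with 2906, 2730 and 3188 in SPH and 6963, 7097 and 7144 in VPH (-1.26, adjusted p = 1.01e-11). Mx2, also named afterwards, was lower (-1.13), with SPH values of 515, 1436 and 269 that overlap VPH (1133, 1359 and 1410), and lost its call with the VPH arrays averaged.

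Ifit3, an antiviral RNA-binding protein best known from the type I interferon response, was the 1 member that was higher, with 1753, 903 and 666 in SPH and 449, 414 and 396 in VPH (1.26, adjusted p = 0.000571), and without SPH replicate 1 it was at 0.87 and not called. Others of that response, Ifit2, the RNA sensor Ifih1, Isg15 and Irf7, were at 0.49, 0.78, -0.25 and -0.20, and Usp18 and Rtp4 were both at -0.67. All 6 were named after their values were seen, and none of them was called. Over the whole interferon list, 12 of 37 genes were above 0. The promoters of Gbp2 and Igtp are given to show the core of the interferon-stimulated response element, which is GAAA, any 2 bases and GAAA again, in capitals on either strand.
Gbp2 (chr2:234005477-234005776, plus strand): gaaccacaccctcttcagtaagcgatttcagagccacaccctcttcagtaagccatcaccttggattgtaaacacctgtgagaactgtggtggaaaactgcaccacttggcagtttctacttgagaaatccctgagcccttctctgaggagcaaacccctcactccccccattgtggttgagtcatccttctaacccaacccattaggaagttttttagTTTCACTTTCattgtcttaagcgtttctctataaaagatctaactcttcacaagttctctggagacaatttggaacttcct
Igtp (chr10:42874797-42875096, plus strand): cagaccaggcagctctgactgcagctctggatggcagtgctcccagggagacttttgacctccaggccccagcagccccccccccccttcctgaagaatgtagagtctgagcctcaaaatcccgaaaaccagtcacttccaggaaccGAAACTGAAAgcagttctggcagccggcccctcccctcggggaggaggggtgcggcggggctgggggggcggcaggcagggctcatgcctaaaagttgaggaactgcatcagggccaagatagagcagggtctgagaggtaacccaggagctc
The match begins at -31 in Gbp2 and at -103 in Igtp. It was found in 2 of 4 lowered genes with a promoter in the table, in the promoter of Ifit3, which was higher, and in 3.77% of all promoters.

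Of 23 tested markers of T cells and natural killer cells, 8 were lower in SPH and none was higher, against 1.3% of all genes lower; the median was -0.88, and all 8 stayed called with VPH replicates 2 and 3 averaged. Prf1, the pore-forming protein perforin, had 162, 180 and 152 in SPH and 572, 571 and 472 in VPH (-1.64, SE 0.20, adjusted p = 5.38e-06). Granzyme B, encoded by Gzmb, had 370, 186 and 216 in SPH and 799, 761 and 676 in VPH (-1.55), and granzyme A, encoded by Gzma, 257, 284 and 276 in SPH and 810, 670 and 732 in VPH (-1.39). None of these arrays overlapped between the groups. Ccl5, a chemokine of activated lymphocytes, had 1057, 972 and 1761 in SPH and 3245, 3390 and 3200 in VPH (-1.42). PH livers averaged 1159 for Ccl5 and normal liver 2590.

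The remaining falls of this list, named after their values were seen, were Cd8a, the co-receptor of cytotoxic T cells (-1.33), Klrd1, the natural killer receptor CD94 (-1.24), the granule protein Nkg7 (-1.17) and granzyme M, Gzmm (-1.06). T cell receptor components, also named afterwards, did not pass the test: Cd3e was at -0.85, Cd3d at -1.40 and Cd3g at -0.22, all dim and with adjusted p between 0.107 and 0.74. Cd4, which macrophages of the rat carry too and which was likewise named afterwards, was at 0.46. Summed signals of the 23 markers were 5298, 5619 and 7465 in SPH, 11702, 11523 and 11483 in VPH, and 5124 to 5694 in PH. Against the shared PH arrays, 8 markers were higher in VPH (1.24% of all genes) and none was called in SPH. Macrophage markers had no call among 20 and a median of -0.30, with Fcgr3a at -0.83 and the protease Ctss at -0.62. B cell markers had 1 call among 10, the kinase gene Blk (1.07), which was lost without SPH replicate 1 or VPH replicate 2. The part that cell numbers had in the class II and interferon differences was not tested.

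**Figure D4:**
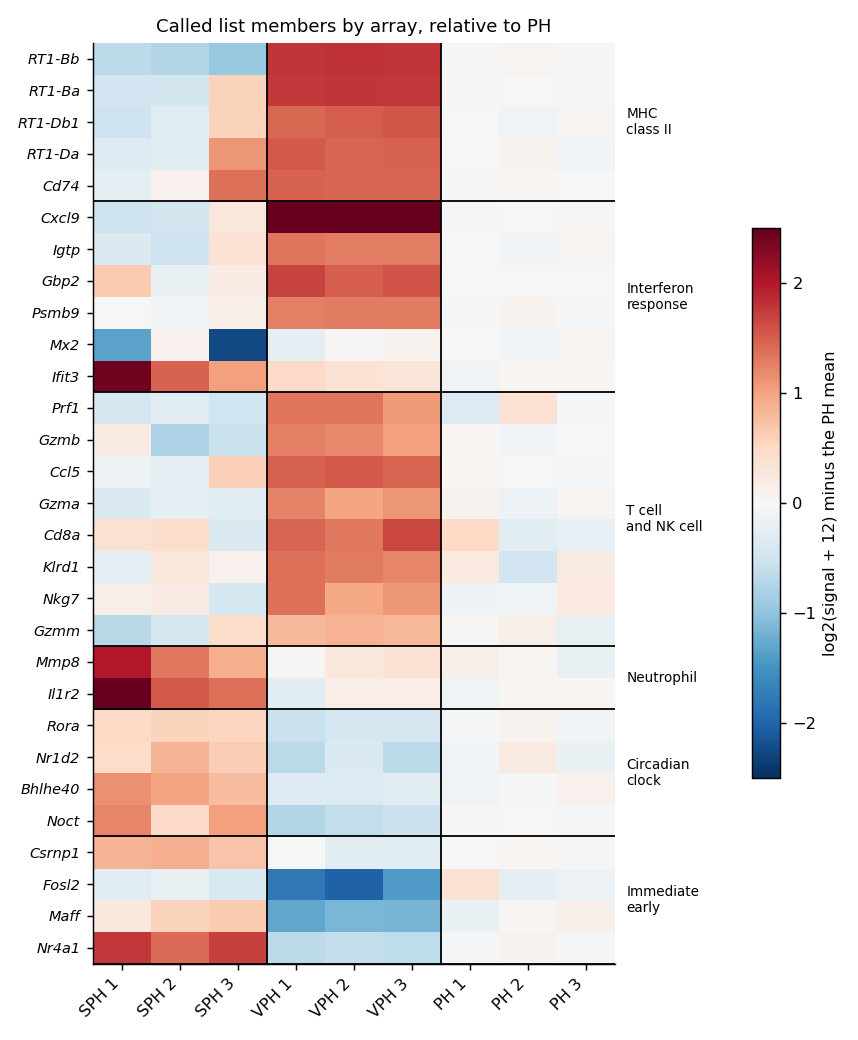
Called members of 6 lists, less 1 neutrophil marker, on each SPH, VPH and PH array. Colour gives log2(signal + 12) minus the PH mean, with the scale ending at 2.5 either way; rows are genes and columns arrays. Class II, interferon gamma and cytotoxic genes are above PH on all VPH arrays, SPH replicate 3 is raised for 4 of the 5 class II genes, and neutrophil genes are highest on SPH replicate 1.

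**Figure D5:**
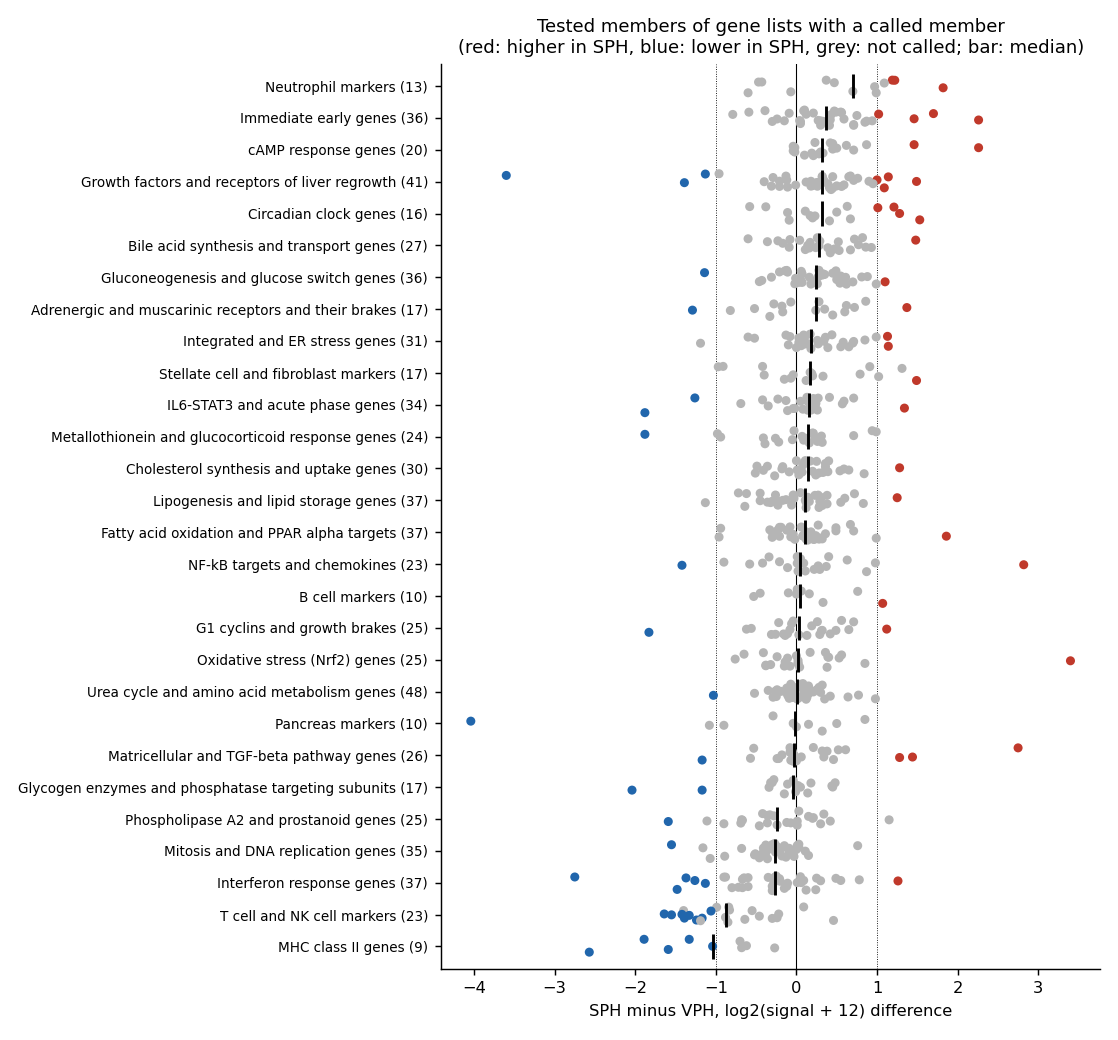
SPH minus VPH for tested members of each list with a called member. Each point is a gene (x axis, log2 difference), red if called higher, blue if called lower and grey if not called; bars are list medians, dotted lines mark 2-fold, and the number tested is in brackets. Medians run from 0.70 for neutrophil markers to -1.04 for MHC class II.

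Genes of glycogen handling included 2 falls and no rise among 17, against 1.3% of all genes lower. Ppp1r3c, a subunit that brings protein phosphatase 1 to glycogen and so favours its synthesis, had 212, 179 and 382 in SPH and 1033, 1062 and 1032 in VPH (-2.04, SE 0.16, adjusted p = 4.21e-08). SPH was also below PH (764, 926 and 742; SPH minus PH -1.67), and sham-operated liver averaged 4020. Ppp1r3b, the main liver form of this subunit, had 822, 481 and 479 in SPH and 1269, 1373 and 1286 in VPH (-1.17). Dimmer probe sets of these genes were at -0.93 and -0.60, neither of them called. Slc2a3, a glucose transporter of leukocytes and neurons, was higher (1.10), among 36 genes of glucose metabolism of which 2 were called. Slc2a3 lost its call with the second table's VPH columns (0.99), and its dimmer probe set was at 1.12 and was not called.

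Lipid and bile acid genes had single calls. Ppara, the nuclear receptor for fatty acids, was dim and higher (178, 237 and 248 in SPH, 26.5, 61.4 and 79.4 in VPH, 1.86), while no other of the 37 fatty acid oxidation genes was called. Gpam, which starts glycerolipid synthesis in mitochondria, had 2292, 1509 and 2002 in SPH and 809, 781 and 794 in VPH (1.25; another probe set 1.32), the only call among 37 lipogenic genes. SPH stood above PH in Gpam (SPH minus PH 1.39), while VPH minus PH was 0.14 and not called. Among 30 cholesterol genes 1 was higher and none was lower.

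Nr0b2, the repressor SHP that shuts down bile acid synthesis, had 5957, 4108 and 5904 in SPH and 2071, 1775 and 1778 in VPH (1.48, SE 0.11, adjusted p = 1.86e-08), the only call among 27 bile acid genes. Nr0b2 was called below PH in VPH (VPH minus PH -1.18), while SPH minus PH was 0.30 and not called. Its target Cyp7a1, the rate-limiting enzyme of the pathway, was at 0.52 (10509, 9201 and 9696 in SPH and 6866, 6798 and 6817 in VPH). Nags, which makes the activator of the urea cycle, was lower (-1.03), the only call among 48 genes of nitrogen metabolism, and went under the fold limit without SPH replicate 2 (-0.87). Drug metabolism genes had no call among 34, with Aox1 at 0.88 and Ahr, the dioxin receptor, at 0.98. Ahr was called with the VPH arrays averaged (1.05) and with the second table's VPH columns (1.04), and its other probe set was at -0.55.

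Growth factors and their receptors included 4 rises and 3 falls among 41, against 1.04% higher and 1.3% lower over all genes. Ntf3, the neurotrophin NT-3, had 180, 172 and 13.8 in SPH and 1132, 1175 and 1179 in VPH (-3.60, SE 0.45, adjusted p = 9.83e-06), with 1 SPH array far below the other SPH arrays. Inhbe, a hepatocyte activin subunit, had 387, 306 and 453 in SPH and 1043, 1006 and 984 in VPH (-1.39). Gdf15, a stress-induced hormone, had 1367, 953 and 959 in SPH and 461, 493 and 495 in VPH (1.14) and was at 0.97, without a call, when SPH replicate 1 was left out. Pdgfrb, a receptor of stellate cells, was at 1.49 and lost its call with the VPH arrays averaged (1.16). Inhba (1.09) and Erbb3 (1.0), also called, were named after their values were seen, and Erbb3 was not called with the VPH arrays averaged. With that averaging the list had 2 rises and 2 falls. Hgf, the main mitogen of hepatocytes, was at 0.90 with overlapping arrays (93, 83.3 and 84.7 in SPH and 103, 21.9 and 26 in VPH; adjusted p = 0.406).

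Genes of TGF-beta signalling, which restrains hepatocyte division, had 3 rises and 1 fall among 26, against 1.04% and 1.3% of all genes. Tgfbr2, the type II receptor, had 249, 238 and 227 in SPH and 17.8, 21.8 and 38.6 in VPH (2.75, SE 0.50, adjusted p = 0.000504). The VPH values lie under the 40th percentile of their arrays (87.35 to 89.77), and PH had 25.3, 82.5 and 37.5. Tgfbr2 thus passed the filter through the SPH arrays, where it is high, and its difference ran between 1.5 and 3.22 over the alternatives. Tgif1, a corepressor of SMADs, had 2101, 1776 and 1903 in SPH and 787, 700 and 883 in VPH (1.28). It was called below PH in VPH (VPH minus PH -1.30), while SPH minus PH was -0.02 and not called. Id3, a target of bone morphogenetic proteins, fell (327, 332 and 372 in SPH, 816, 748 and 791 in VPH, -1.17).

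Cell cycle genes had few calls. Tob1, an antiproliferative protein, had 13495, 11379 and 13205 in SPH and 5664, 5859 and 5887 in VPH (1.12, adjusted p = 5.07e-09), and Ccne1, cyclin E1, 60, 72.8 and 40.1 in SPH and 249, 231 and 215 in VPH (-1.83), the 2 calls among 25 G1 genes. Of 35 genes of mitosis and DNA replication, 1 was called, the checkpoint kinase Bub1b (-1.55), which lost its call with the VPH arrays averaged. Gmnn, the replication inhibitor geminin, which is outside the lists, was lower (29.6, 57.8 and 25.9 in SPH and 211, 256 and 246 in VPH, -2.38).

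Among stress genes, Chac1, a glutathione-degrading enzyme induced by ATF4, was higher (1388, 1056 and 1368 in SPH and 605, 561 and 545 in VPH, 1.13). With Gdf15 it made up the 2 calls among 31 integrated and ER stress genes, against 1.04% of all genes higher. Heat shock genes had no call among 19, although Hsf2, a heat shock factor, was at 0.99 and 2 of its other probe sets were called at 1.61 and 1.0. Bach1, a heme-sensing repressor of antioxidant genes, had 360, 348 and 396 in SPH and 25.9, 14.6 and 33.5 in VPH (3.40, SE 0.34, adjusted p = 5.36e-07). It was the only call among 25 genes of the Nrf2 list, and PH lay between the groups (86.8, 185 and 112). Its VPH signals are close to the constant of 12, and the difference ran between 2.00 and 3.92 over the alternatives. Pla2g2d, a secreted phospholipase of dendritic cells and macrophages, was the only call among 25 genes of its list, with 172, 208 and 543 in SPH and 918, 812 and 789 in VPH (-1.59).

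Other large differences were of genes outside the lists, or of the only called gene of a list. Differences of at least 4-fold were found for 12 genes that rose and 20 that fell. LOC690948, titled in the deposited annotation as similar to a paired immunoglobulin-like receptor, had 232, 506 and 851 in SPH and 4.6, 4.34 and 5.86 in VPH (4.82, SE 0.41, adjusted p = 7.23e-08). Since its VPH signals are under the constant of 12 that was added, the size depends on that constant and ran between 2.57 and 6.30 over the alternatives, called in all of them. Normal liver was as dim as VPH for LOC690948 (2.09, 1.58 and 9.16). Sham-operated, PH and TDPH livers averaged 154, 117 and 138. LOC362795, an immunoglobulin heavy chain, had 786, 1087 and 4222 in SPH and 398, 273 and 341 in VPH (2.16), highest on SPH replicate 3. Dact2, an inhibitor of Wnt and TGF-beta signals, had 445, 522 and 515 in SPH and 109, 94.8 and 91.3 in VPH (2.20, adjusted p = 1.61e-08).

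The other large rises were of dim genes. Stc2, a secreted glycoprotein of calcium and phosphate balance, was at 2.19 (111, 229 and 218 in SPH and 30.4, 15.5 and 49.8 in VPH). The ubiquitin ligase Rnf152 was at 2.35, the adaptor She at 2.05, the milk protein Wap at 2.01 and Tmem117 at 2.07. Tmem117 lost its call with the VPH arrays averaged, and Tmem117, She and Wap lost theirs with the second table's VPH columns. Of 19 alternatives that tested these probe sets, 8 kept the call of Tmem117, 12 that of Wap, 15 that of She and 18 that of Rnf152.

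The largest fall was Cpa1, a pancreatic carboxypeptidase, with 47.8, 37 and 15.7 in SPH and 663, 775 and 671 in VPH (-4.04, SE 0.24, adjusted p = 8.06e-10). It was the only call among 10 tested pancreas markers, whose median was -0.02. The summed signals of these 10 were 1383 to 1781 in SPH and 2149 to 2259 in VPH. Cpa1 is itself in these sums, and its own gap is about as large as theirs. LOC690768, annotated only as a hypothetical protein, was bright, with 5544, 4264 and 11232 in SPH and 30519, 30394 and 30538 in VPH (-2.24). Its SPH arrays differed widely among themselves and none reached the VPH level. PH livers averaged 4267 for LOC690768 and normal liver 22241. Serpinb9b, a protease inhibitor of the serpin family, had 48.7, 25.6 and 66.4 in SPH and 337, 294 and 259 in VPH (-2.45).

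Others of the 12 largest falls with arrays that do not overlap were dim. Wnt4, a secreted signal of the Wnt family, was at -2.58, Cryl1, a lens crystallin relative with dehydrogenase activity, at -2.38, the ubiquitin ligase Trim59 at -2.32, Sipa1, a GTPase-activating protein for Rap, at -2.27 and the homeobox gene Barhl1 at -2.25. Barhl1 lost its call with the VPH arrays averaged, and Sipa1 with the second table's VPH columns.

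Receptors for the transmitters of the cut nerves gave 2 calls, neither of which held with the VPH arrays averaged. Of 17 adrenergic and muscarinic receptors and their regulators that passed the filter, Adrb1, the beta-1 receptor, was higher (258, 156 and 298 in SPH, 232, 38.7 and 53.5 in VPH, 1.37) and Adra2c, the alpha-2C receptor, lower (32.1, 19.7 and 41.9 in SPH, 108, 109 and 63.9 in VPH, -1.29). Adra1b, the main alpha-1 receptor of rat hepatocytes, had 3156, 1781 and 2188 in SPH and 1966, 1949 and 1926 in VPH (0.24, adjusted p = 0.265). The muscarinic receptor Chrm3 was at 0.60 and was not called. Nerve and Schwann cell markers had no call among the 10 of 21 on the array that passed the filter, with Npy, a cotransmitter of sympathetic fibres, at 0.75.

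Hepatocyte genes had small differences of the same sign. Of 33 tested genes of proteins that hepatocytes secrete, none was called and all 33 were above 0, between 0.06 and 0.49, with a median of 0.22. Alb, which encodes albumin, had 56917, 64499 and 55991 in SPH and 48503, 43130 and 40971 in VPH (0.42). The 18 hepatocyte markers were all above 0 as well (median 0.21), and no call was made among them or among 13 endothelial, 6 cholangiocyte, 6 red cell, 5 platelet and 8 adrenal and other abdominal tissue markers.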

How the data were processed

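RNA of the 6 SPH and VPH arrays, and of the other 12, was used as signal intensity that the authors deposited. Per the submitters' processing notes GCOS 2.0 was used, and the values show arrays scaled to the same trimmed mean; how background was subtracted is not stated in the sources used here. The second deposited table gives signals, log2 ratios and ratios, per the file headers; only its VPH signal intensity columns were used, as an alternative, and 105 columns of values were not used. Signals were taken as log2(signal + 12), 12 being near the 10th percentile of all signals (11.9). Without the 57 control probe sets, 22125 passed the filter (over the array's 40th percentile in 3 arrays or more) and were tested. limma 3.58.1 (R 4.3.3) fitted means of the 6 groups to the 18 arrays (eBayes with a trend, 12 residual and 7.14 prior degrees of freedom), two-sided, with Benjamini-Hochberg adjustment; calls needed an adjusted p under 0.05 and at least 2-fold. The fitting script was tested on simulated data.

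Gene names came from the deposited annotation, updated through RefSeq's gene table (GRCr8): 15989 probe sets had a current symbol, 2539 were updated by synonym and 11 by accession, 1314 kept theirs, 10791 had none, 343 had several, and 31 with a number for a symbol and 24 whose accession names another gene were left unnamed. A gene was represented by its brightest probe set that names it alone (11491 genes). Members and the 39 gene lists were chosen with earlier results of these data known. Genes named are the 12 largest rises and falls with arrays that do not overlap, up to 4 called members of a list (or 2 uncalled), 25 fixed genes and other probe sets of these; exceptions are marked, and some genes under this rule are not reported here. Promoters were in the table for 79 of 105 named genes. Alternatives changed the added constant, the filter, scaling, array weights, trend, arrays fitted and VPH columns, used the replicate number as a block, or left out each array. Averaging VPH replicates 2 and 3 was added after the data had been seen. The replicate numbers did not pair the groups.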

Additional observations from a re-analysis of the deposited data

Results flagged for a closer look

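Of the 105 genes named by rule, 4 were called on opposite sides of PH in the 2 nerve operations. Both calls come from the same fit and the same PH arrays. Such calls make a large SPH minus VPH difference by construction, so that difference is no separate support. Other genes were not searched for this pattern. LOC690948 differed by 4.82 between SPH and VPH, with SPH minus PH at 1.91 and VPH minus PH at -2.91. Bach1 differed by 3.4, with SPH minus PH at 1.5 and VPH minus PH at -1.90. Cpa1 differed by -4.04, with SPH minus PH at -1.82 and VPH minus PH at 2.22. Ntf3 differed by -3.6, with SPH minus PH at -2.16 and VPH minus PH at 1.44, and its 3 SPH arrays measured 180, 172 and 13.8. PH arrays measured 86.8, 185 and 112 for Bach1 and 152, 176 and 104 for Cpa1. Normal liver averaged 4.28 for LOC690948, 16.6 for Bach1, 2262 for Cpa1 and 403 for Ntf3.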

How the results depend on the processing

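Of 67 genes named by rule that were called, 53 stayed called with 90 added to the signal, 60 with VPH replicates 2 and 3 averaged, 49 when in addition SPH and VPH arrays alone were fitted, and 57 with the second table's VPH columns. Counts of probe sets moved more. With 90 added, 99 were higher and 72 lower; with the filter at the 60th percentile, 185 and 149; with VPH replicates 2 and 3 averaged, 255 and 167; with that averaging and SPH and VPH arrays alone fitted, 137 and 68. Fitting SPH and VPH arrays alone, 173 were lower (218 higher). Leaving out each array in turn gave 255 to 385 higher and 181 to 357 lower; the lower count was 183 without VPH replicate 2 and 181 without VPH replicate 3. Those settings fit fewer samples, test fewer probe sets or shrink dim differences by construction. All other settings tried kept both counts within 1.5 times. The SPH and VPH numbers do not pair the arrays, since deviations of arrays with the same number correlated at 0.00691, -0.00575 and 0.016; with the replicate block 319 probe sets were higher and 279 lower. Of the genes named by rule, Tnf turned in sign, at 0.03 without SPH replicate 2 (-0.55 to 0.03 over the arrays left out); it was not called in any setting, and the cause was not tested. Limits: arrays are technical replicates, the SPH arrays spread further than those of any other group, detection calls were not used here, and differences of dim genes depend on the constant added.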

Other observations

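Within SPH, gene groups ranked the arrays differently. Of 35 genes of mitosis and DNA replication, 26 were highest on SPH replicate 2, of 33 hepatocyte secreted proteins 29 were highest on the same array, of 20 macrophage markers 16 were highest on replicate 3, and of 13 neutrophil markers 11 on replicate 1. Over all 11491 genes these shares were near level, with 3659, 3752 and 4080 highest on replicates 1, 2 and 3. The median gene ranged over 0.38 (log2) within SPH and 0.23 within VPH, the MHC class II genes over 1.06 in SPH and 0.09 in VPH, and the neutrophil markers over 1.08 and 0.34. Akr1b7, an aldo-keto reductase of adrenal and other steroid-making tissue, is the clearest single case, with 5694, 1865 and 821 in SPH and 3906, 3812 and 3756 in VPH; without SPH replicate 1 it was called lower, at -1.62. Epcam, an adhesion molecule of bile duct cells, had 2606, 1520 and 953 in SPH and 843, 804 and 807 in VPH and was called at 1.27 without SPH replicate 3.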
